A study of Homo sapiens with 29 samples.

Results

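The genes described here are 38 human genes of the hypoxia response and of glycolysis, chosen as a list of symbols and found in the deposited table through their Ensembl gene identifiers. All 38 were found among the 58302 genes of the table, and 37 of them had enough counts to be tested. Their RNA levels were read in 29 xenograft tumours, grown from the human breast cancer line MDA-MB-231, which is of the triple-negative kind, or from a paclitaxel-resistant line derived from it, both in SCID-beige mice, which lack T and B cells and have impaired natural killer cells. The stated purpose was to ask whether drug resistance is tied to methylation-driven changes in expression and whether decitabine, which inhibits DNA methyltransferases, reverses them. The resistant tumours were grown from 1500000 injected cells and treated from day 16, with 3 libraries for decitabine at 0.4 mg/kg, 4 for doxorubicin at 1 mg/kg, 3 for both drugs (the combination) and 4 for vehicle. The parental tumours were grown from 250000 injected cells and treated from day 6, with 4 libraries for decitabine, 3 for doxorubicin, 4 for the combination and 4 for vehicle, at the same doses. In all arms treatment lasted 26 days, as 2 cycles of 12 days with 2 days of rest between them. Decitabine was given on days 1 to 4 and 10 to 11 of a cycle, and doxorubicin, a topoisomerase poison, on days 5 and 12. The resistant line is a single derived line, and line could not be told apart from the number of cells injected or the day on which treatment began. Injection was bilateral, and which libraries came from the same mouse is not labelled, so each p-value rests on the spread among samples some of which may share a host.

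Cells sense oxygen through the HIF transcription factors. With oxygen present, prolyl hydroxylases of the EGLN family mark the HIF alpha subunits for destruction by VHL, and in hypoxia HIF1A or EPAS1 pairs with ARNT and binds a short core motif near its target genes. Classical targets raise glucose uptake, every step of glycolysis, lactate production and export, acid handling, blood vessel growth and the removal of mitochondria, and also include EGLN1 and EGLN3, which feed back on HIF itself. In solid tumours these genes are high where perfusion is poor and also where oncogenic signalling drives glycolysis in oxygen.

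The promoters of 5 members are shown first, 4 with the HIF core motif ACGTG and 1 without it. Promoters were RefSeq windows on GRCh38.p14 of 300 bases, with 250 before the gene start and 50 after it, printed from 5′ to 3′ on the gene's own strand. Capitals mark ACGTG or its reverse complement CACGT, with CACGTG, which holds both, counted once. LDHA (chr11:18394313-18394612, plus strand), PGK1 (chrX:78103998-78104297, plus strand) and BNIP3 (chr10:131981874-131982173, minus strand) are shown because their transcripts fell with decitabine in the resistant line. ENO1 (chr1:8878637-8878936, minus strand) fell as well and is shown because its window holds no copy of ACGTG, although it holds 2 of the other core variant, GCGTG, which is not capitalised. CA9 (chr9:35673678-35673977, plus strand), often used as a marker of hypoxia, is shown because it was almost silent in these tumours.
LDHA: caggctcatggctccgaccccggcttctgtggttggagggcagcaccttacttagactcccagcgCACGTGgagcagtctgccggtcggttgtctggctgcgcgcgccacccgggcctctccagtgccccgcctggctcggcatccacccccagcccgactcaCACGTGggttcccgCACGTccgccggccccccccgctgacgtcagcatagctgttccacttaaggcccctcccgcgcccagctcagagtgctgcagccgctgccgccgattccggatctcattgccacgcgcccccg
PGK1: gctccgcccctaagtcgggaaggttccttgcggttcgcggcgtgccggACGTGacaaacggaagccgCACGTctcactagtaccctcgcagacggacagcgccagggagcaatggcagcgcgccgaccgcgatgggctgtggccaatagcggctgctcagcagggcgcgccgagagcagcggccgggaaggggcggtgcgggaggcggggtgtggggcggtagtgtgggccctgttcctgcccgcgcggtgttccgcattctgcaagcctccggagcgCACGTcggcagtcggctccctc
BNIP3: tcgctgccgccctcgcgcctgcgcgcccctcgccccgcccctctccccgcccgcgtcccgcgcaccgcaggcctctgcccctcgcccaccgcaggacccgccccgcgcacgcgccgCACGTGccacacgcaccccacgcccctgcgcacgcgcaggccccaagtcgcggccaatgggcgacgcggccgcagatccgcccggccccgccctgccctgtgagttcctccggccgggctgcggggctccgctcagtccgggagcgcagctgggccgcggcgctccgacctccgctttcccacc
CA9: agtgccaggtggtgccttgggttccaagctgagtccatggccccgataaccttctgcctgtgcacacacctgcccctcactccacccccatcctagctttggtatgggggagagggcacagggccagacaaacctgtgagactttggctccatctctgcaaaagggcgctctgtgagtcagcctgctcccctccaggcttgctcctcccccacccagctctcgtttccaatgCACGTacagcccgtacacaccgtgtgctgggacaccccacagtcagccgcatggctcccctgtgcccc
ENO1: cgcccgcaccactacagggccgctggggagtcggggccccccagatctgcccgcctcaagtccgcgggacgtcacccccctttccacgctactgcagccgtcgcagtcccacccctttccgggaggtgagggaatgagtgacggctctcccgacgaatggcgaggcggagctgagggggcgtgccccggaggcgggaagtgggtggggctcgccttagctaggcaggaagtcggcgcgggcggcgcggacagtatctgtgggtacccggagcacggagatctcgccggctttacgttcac
The LDHA window held 3 copies, whose first bases lie 185, 87 and 73 bases before the gene start. In PGK1 they lie 202 and 183 bases before the start and 29 after it, in BNIP3 134 bases before it, and in CA9 18 bases before it. The promoter table held 34 of the 38 members, and 16 of these, or 47.1%, had at least 1 copy, against 21.4% of all 35116 promoters of the same length. At least 2 copies were found in 14.7% of the member promoters and in 3.4% of all promoters. GCGTG on either strand was found in 47.1% of the member promoters and in 36.5% of all. The share over all promoters counts every entry of that length, while each member was read in 1 window. The 2 sets were not matched for base composition. A match describes letters only and is not evidence of binding.

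The libraries held 3398261 to 5382295 counts each, with a median of 4600007, and the members took 0.85% to 2.39% of a library. Of the line's markers, VIM stood at 1449 to 3031 CPM (the usual counts-per-million unit, on the scaled library size), CD44 at 505 to 1008 CPM and EGFR at 102 to 210.2 CPM, and among genes expected to be absent or low ESR1 stayed at or below 2.53 CPM and PGR at or below 0.232 CPM, but ERBB2 lay at 14 to 24.5 CPM and GATA3 at 22.2 to 52.8 CPM. On the second principal component, which held 13.2% of the variance, parental vehicle replicate 3 and resistant decitabine replicate 2 stood apart from the other libraries. Some of the results that rest on them are given below with and without them. The average decitabine effect and the interaction are given only with both of them in the main fit. The tags come from the 3′ end, so counts do not scale with transcript length. In whole tumours, fewer cells of a type and less RNA per cell cannot be told apart.

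Levels spanned a wide range within the set. NDRG1, a stress protein of the cytoplasm, ran from 421 to 6071 CPM over the 29 libraries, PGK1, which makes ATP in lower glycolysis, from 636 to 2932 CPM, and GAPDH from 909.6 to 3105 CPM. EGLN3 lay between 0 and 20.6 CPM. CA9, a membrane carbonic anhydrase, had 48 counts in all, spread over 17 libraries and never more than 7 in one, and was too low to test. The values of 2 members are uncertain because reads may be shared with processed pseudogenes. PGAM1, the phosphoglycerate mutase, had 522 counts in all against 474 in 13 rows of its pseudogenes, and BNIP3 had 32306 counts against 9280 in 39 pseudogene rows.

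With decitabine alone in resistant tumours, 6 of the 37 members tested fell and none rose in edgeR's quasi-likelihood test at an adjusted p under 0.05 (Benjamini-Hochberg over all 13495 genes tested), while 3.33% of all genes passed in either direction, 2.03% higher and 1.3% lower. All 37 fitted changes were below 0, with a median log2 change of -0.74 against 0.00 for all genes. These 37 values come from the same 7 libraries and are not independent of each other. The 6 were the glycolytic enzymes GPI, PGK1, ENO1 and LDHA, the mitophagy receptor BNIP3 and the secreted lipase inhibitor ANGPTL4. None passed without decitabine replicate 2, and the changes nearest 0 were those of PFKL (-0.04) and GAPDH (-0.07).

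In parental tumours decitabine alone also left all 37 fitted changes below 0, with a median log2 change of -0.51, but 1 member fell and none rose, with 1.67% of all genes passing in either direction, 0.793% higher and 0.874% lower. That member was GPI. No member passed the test of a difference between the lines in the decitabine response, in which 0.119% of all genes passed, 0.104% higher and 0.0148% lower. With no adjustment, at p under 0.05, 4 members were lower in that test by edgeR, and 4 lower and 1 higher by DESeq2, which called none, against 19.6% of all genes by edgeR. The smallest p-values belonged to LDHA (log2 change -0.69, SE 0.25, adjusted p = 0.156) and ENO1 (log2 change -0.53, SE 0.20, adjusted p = 0.162).

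**Figure D1:**
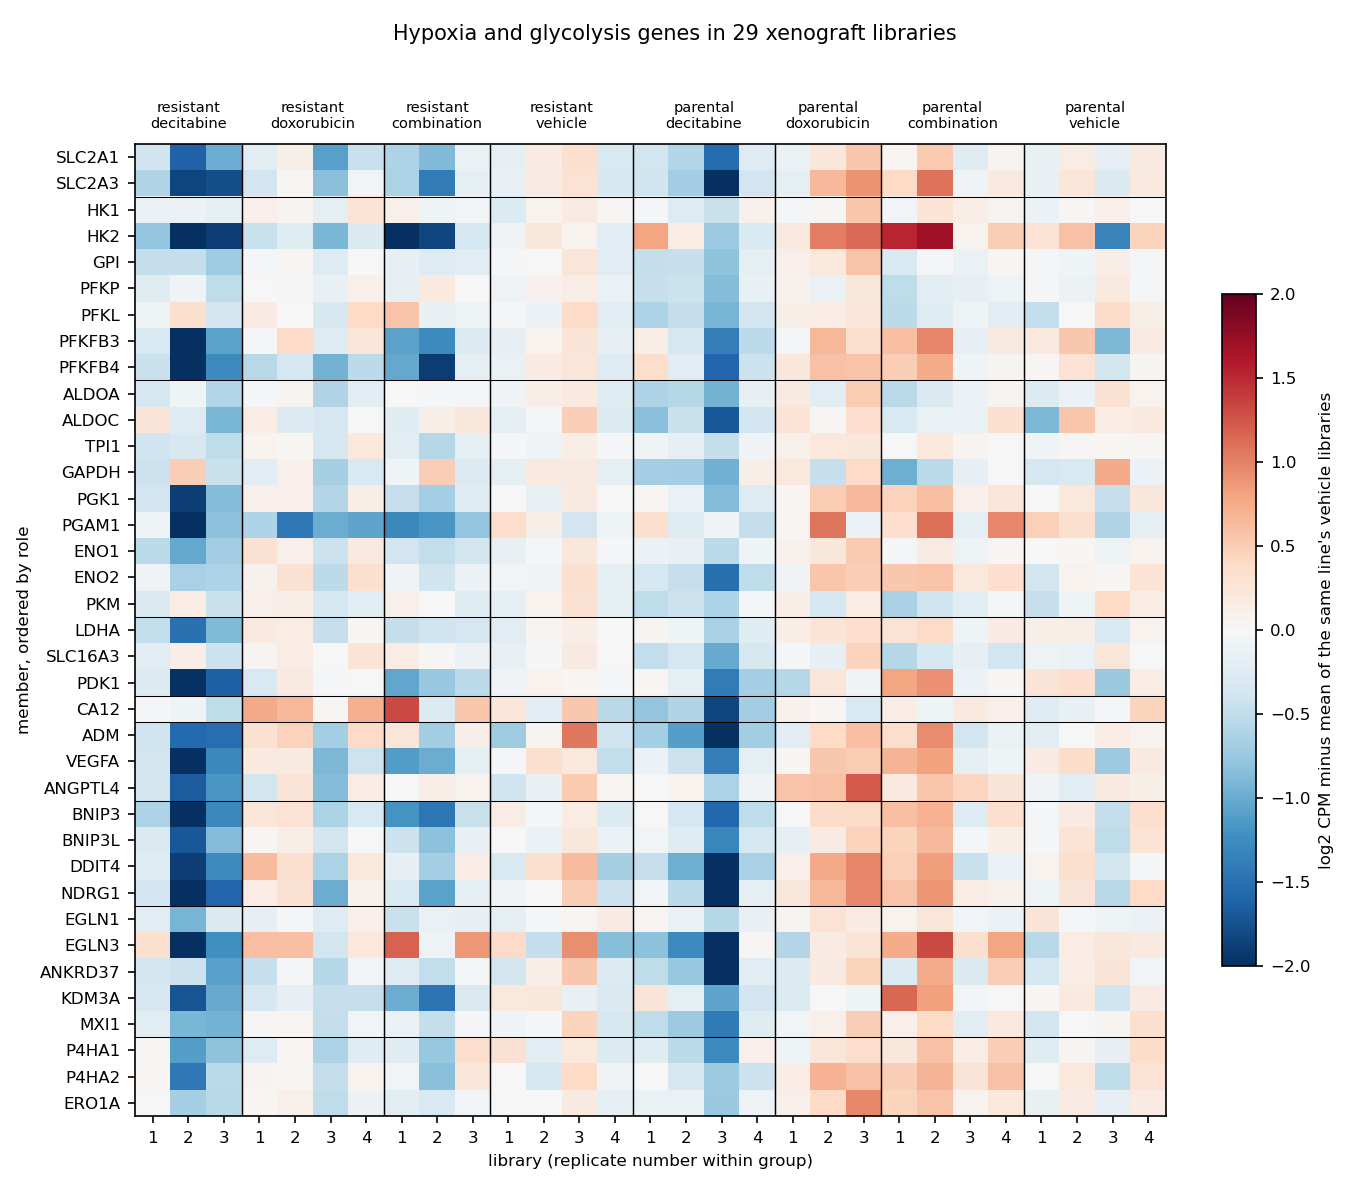
Level of each tested member (rows, by role) in each of the 29 libraries (columns, by group), as log2 CPM minus the mean of the vehicle libraries of the same line, with colour saturated at 2 in either direction. Resistant decitabine replicates 2 and 3 and parental decitabine replicate 3 are blue over most rows, with list means of -1.21, -0.91 and -1.23.

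Glucose enters cells through SLC2A1 (GLUT1) and SLC2A3 (GLUT3). SLC2A3 had 155, 65.8 and 69 CPM in the resistant decitabine tumours, against 213, 265, 290.3 and 189.6 CPM with vehicle. In the parental line it had 131, 108, 39.2 and 133 CPM with decitabine, against 157, 205, 142 and 199 CPM with vehicle. In both lines every decitabine library was below every vehicle library, and replicates 2 and 3 of the resistant line and replicate 3 of the parental line were lowest. The change did not pass in either line alone (resistant log2 change -1.30, SE 0.39, adjusted p = 0.067, and parental log2 change -0.78, SE 0.35, adjusted p = 0.23). SLC2A1 had 349, 150.3 and 231 CPM with decitabine in resistant tumours, against 406, 518, 580.2 and 374 CPM with vehicle, without overlap. It did not pass there (log2 change -0.94, SE 0.30, adjusted p = 0.0796).

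Of the enzymes that trap and rearrange hexose, GPI, which turns glucose-6-phosphate into fructose-6-phosphate, was the member with the smallest p in the parental line. It had 314, 312 and 267 CPM in resistant decitabine tumours, against 428, 435, 514 and 373 CPM in resistant vehicle tumours (log2 change -0.56, SE 0.13, adjusted p = 0.0181). In parental tumours it had 334, 335, 265 and 409 CPM with decitabine, against 456, 435, 509 and 456 CPM with vehicle (log2 change -0.47, SE 0.12, adjusted p = 0.0457). The groups did not overlap in either line, and GPI averaged 298 ± 26.7 CPM in resistant decitabine tumours and 438 ± 58.1 CPM in resistant vehicle tumours (SD, n = 3 and 4). HK2, the inducible hexokinase, had 30.6, 3.96 and 14.1 CPM in resistant decitabine tumours, against 50.5, 62.1, 56.1 and 45.4 CPM with vehicle. All 3 decitabine libraries were below the vehicle libraries, but they spread widely among themselves and the change did not pass (log2 change -1.68, SE 0.56, adjusted p = 0.0978). The constitutive hexokinase HK1 had 139.9, 139.6 and 135 CPM with decitabine in the resistant line, against 126, 159.6, 171 and 155 CPM with vehicle, and the groups overlapped (log2 change -0.15, SE 0.14, adjusted p = 0.574).

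Phosphofructokinase commits sugar to glycolysis. Its platelet form PFKP and liver form PFKL had log2 changes of -0.27 and -0.04 with decitabine in the resistant line, and of -0.46 and -0.62 in the parental line. The regulators PFKFB3 and PFKFB4, which set the level of the activator fructose-2,6-bisphosphate, had -1.01 and -1.13 in the resistant line, and -0.52 and -0.34 in the parental line. None of these values passed. PFKFB3 had 228, 58.8 and 135 CPM in resistant decitabine tumours, against 251, 298, 337 and 252 CPM with vehicle, so that replicate 2 was far below the rest.

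In lower glycolysis, ENO1, the main enolase, had 1030.4, 733 and 926 CPM with decitabine in resistant tumours, against 1344, 1475, 1742 and 1448 CPM with vehicle (log2 change -0.74, SE 0.15, adjusted p = 0.00471). The groups did not overlap. The parental line had 1506, 1472, 1125 and 1541 CPM with decitabine, against 1638, 1673, 1515 and 1704 CPM with vehicle. Replicate 4 lay inside the vehicle range there and the other 3 below it, and ENO1 did not pass (log2 change -0.21, SE 0.14, adjusted p = 0.406). PGK1 had 1808, 636 and 1298 CPM with decitabine in resistant tumours, against 2342, 2115, 2667 and 2337 CPM with vehicle (log2 change -0.92, SE 0.25, adjusted p = 0.0421). Its parental values overlapped (log2 change -0.29, SE 0.23, adjusted p = 0.502).

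The other members of lower glycolysis did not pass in either line. TPI1, the triose isomerase, had 309, 326 and 288 CPM in resistant decitabine tumours, against 403, 383, 451 and 401 CPM with vehicle, without overlap (log2 change -0.41, SE 0.12, adjusted p = 0.0518). The aldolases ALDOA and ALDOC had log2 changes of -0.33 and -0.26 in the resistant line, and of -0.56 and -0.89 in the parental line. ENO2, the second enolase, had log2 changes of -0.44 in the resistant and -0.66 in the parental line, and PGAM1 of -0.83 and -0.17. PKM, the kinase of the final step, had log2 changes of -0.19 and -0.41. GAPDH, which reduces NAD+ in the middle of the pathway, had 1066, 2028 and 1051 CPM in resistant decitabine tumours, against 1254, 1640.5, 1629 and 1276 CPM with vehicle (log2 change -0.07, SE 0.31, adjusted p = 0.921), and its highest value was in replicate 2, where 24 of the 37 members had their lowest value of the 3 libraries.

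LDHA, which reduces pyruvate to lactate, had 1035, 513 and 791 CPM in resistant decitabine tumours, against 1257, 1511, 1597 and 1463 CPM in resistant vehicle tumours (log2 change -0.90, SE 0.19, adjusted p = 0.00588). Its groups did not overlap, and replicate 2 was lowest. In parental tumours it had 1446, 1305, 884 and 1177 CPM with decitabine, against 1509.7, 1499.8, 1117 and 1462 CPM with vehicle, and these overlapped (log2 change -0.22, SE 0.17, adjusted p = 0.499). PDK1, a kinase that inhibits pyruvate dehydrogenase, had 43.2, 13 and 16.6 CPM in resistant decitabine tumours, against 49.8, 54.5, 53.4 and 51.1 CPM with vehicle (log2 change -1.08, SE 0.35, adjusted p = 0.0867). The lactate exporter SLC16A3 (MCT4) had a log2 change of -0.16 in the resistant line and -0.52 in the parental line, where its groups did not overlap (adjusted p = 0.0567).

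Carbonic anhydrase CA12, which helps set the pH outside the cell, had 75, 72.9 and 54.1 CPM in resistant decitabine tumours, against 91, 66.1, 112 and 52.4 CPM with vehicle. The parental line had 70.4, 80, 33.9 and 75.4 CPM with decitabine, against 102, 110.2, 118 and 167 CPM with vehicle. The resistant groups overlapped, and the parental ones did not. CA12 did not pass in either line (resistant log2 change -0.26, SE 0.30, adjusted p = 0.67, and parental log2 change -0.94, SE 0.28, adjusted p = 0.0732).

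Among secreted products, ANGPTL4 had 245, 98.6 and 139.7 CPM in resistant decitabine tumours, against 238, 282, 453 and 321 CPM in resistant vehicle tumours (log2 change -1.0, SE 0.27, adjusted p = 0.0377). Decitabine replicate 1 lay inside the vehicle range. ADM, the vasodilator adrenomedullin, had 471, 211 and 216 CPM in resistant decitabine tumours, against 379, 646, 1291 and 469 CPM with vehicle. In parental tumours it had 402, 299.7, 122 and 396 CPM with decitabine, against 552, 643, 718 and 676 CPM with vehicle. The parental groups did not overlap, yet ADM passed in neither line (resistant log2 change -1.22, SE 0.45, adjusted p = 0.127, and parental log2 change -1.09, SE 0.40, adjusted p = 0.142). VEGFA, the vessel growth factor, had log2 changes of -1.19 in the resistant and -0.51 in the parental line and did not pass.

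BNIP3, a receptor that delivers mitochondria to autophagy, had 191, 68.7 and 120.1 CPM in resistant decitabine tumours, against 325, 291, 327 and 243 CPM with vehicle (log2 change -1.22, SE 0.34, adjusted p = 0.0484). The groups did not overlap. In parental tumours BNIP3 had 245, 193, 81.1 and 170.1 CPM with decitabine, against 238, 272, 175 and 307 CPM with vehicle, with overlap (log2 change -0.52, SE 0.31, adjusted p = 0.357). Its relative BNIP3L, the mTOR inhibitor DDIT4 and NDRG1 had log2 changes of -0.84, -1.07 and -1.31 in the resistant line, and of -0.45, -0.96 and -0.62 in the parental line. None of these values passed. NDRG1 had 2241, 421 and 978 CPM in resistant decitabine tumours, against 2793, 2924, 4125 and 2163 CPM with vehicle, so replicate 1 lay within the vehicle range and replicates 2 and 3 below it.

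Of the genes that feed back on HIF or act on chromatin, none passed with decitabine alone in either line. MXI1, an antagonist of MYC, had 147, 89.8 and 87.9 CPM in resistant decitabine tumours, against 158, 166, 229.5 and 135 CPM with vehicle (log2 change -0.67, SE 0.23, adjusted p = 0.106). The parental line had 119, 102, 63.2 and 143 CPM with decitabine, against 131, 168, 176 and 210.3 CPM with vehicle (log2 change -0.68, SE 0.21, adjusted p = 0.0844). Both pairs overlapped at 1 decitabine library. The oxygen sensors EGLN1 and EGLN3, the ankyrin repeat protein ANKRD37 and the histone demethylase KDM3A had log2 changes from -1.0 to -0.45 in the resistant and from -1.02 to -0.20 in the parental line. EGLN3 was at the edge of detection in resistant tumours, with 2.06, 0 and 0.426 CPM with decitabine, against 2.19, 1.01, 3.39 and 0.678 CPM with vehicle.

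The last role was protein folding and collagen hydroxylation. ERO1A, which reoxidises the protein disulfide isomerase of the endoplasmic reticulum, had 384, 238 and 259 CPM in resistant decitabine tumours, against 380.0, 382, 431 and 333 CPM with vehicle. In parental tumours it had 291, 291, 189 and 296 CPM with decitabine, against 288, 356, 279 and 358 CPM with vehicle. A single decitabine library of the resistant line and 3 of the parental line lay inside the vehicle range. ERO1A and the collagen prolyl hydroxylases P4HA1 and P4HA2 did not pass in either line, with log2 changes from -0.56 to -0.38 in the resistant and from -0.43 to -0.26 in the parental line.

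**Figure D2:**
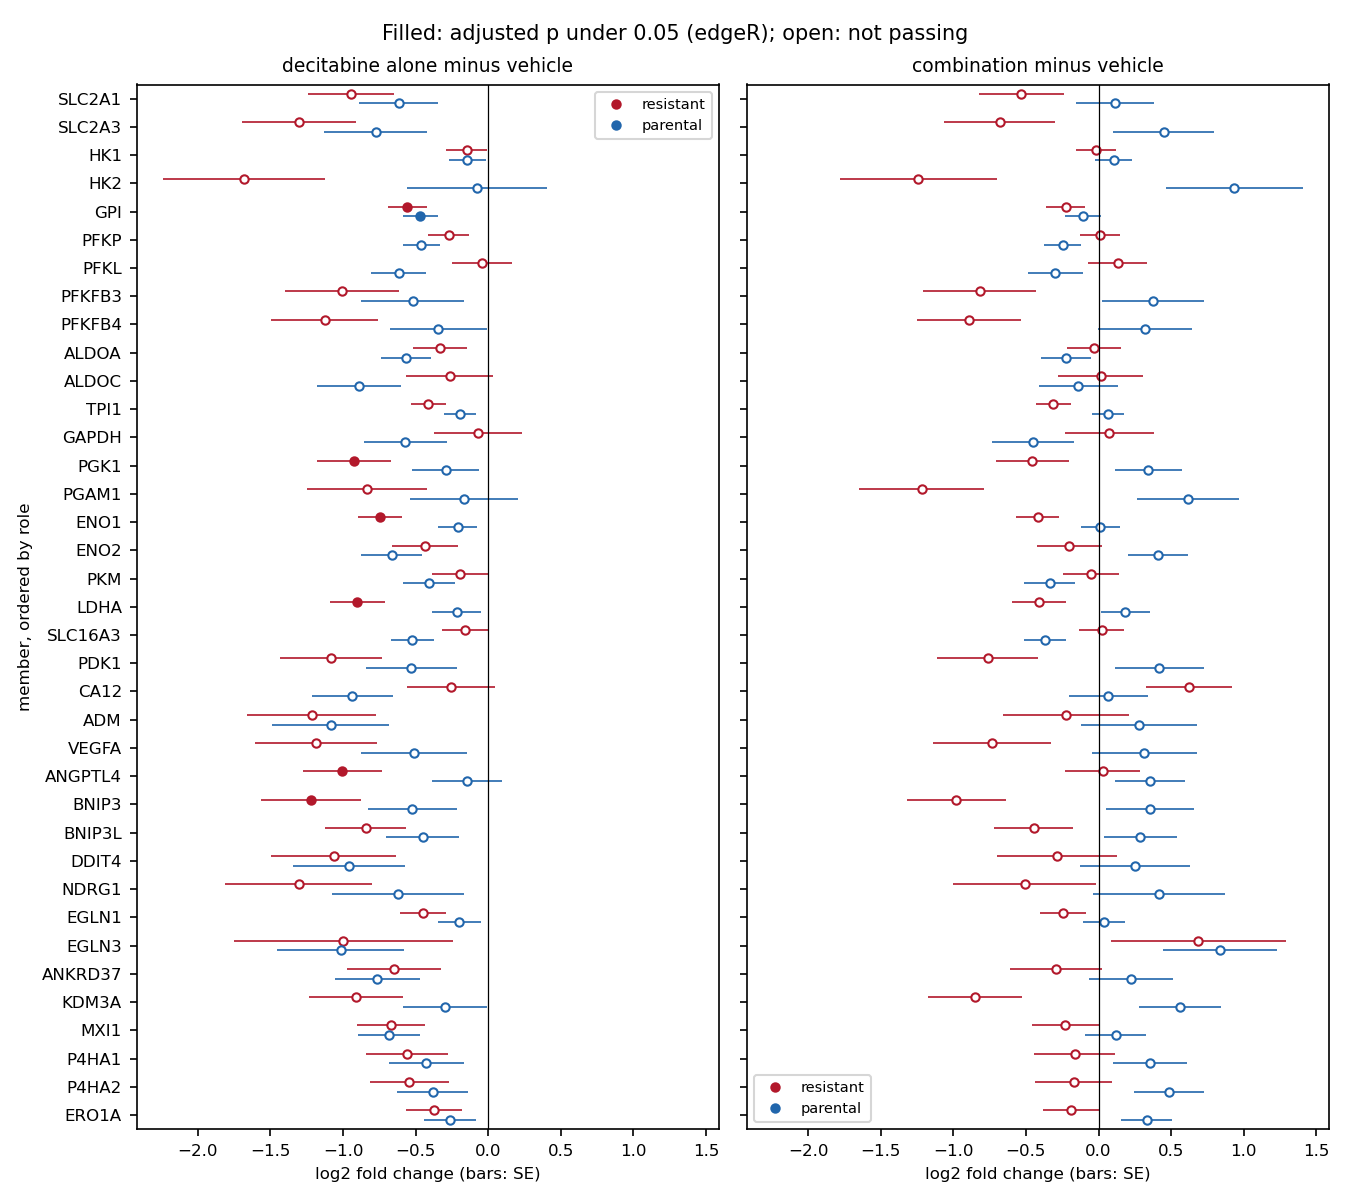
Fitted log2 fold change of each tested member (points, bars of 1 SE) for decitabine alone against vehicle (left) and for the combination against vehicle (right), with resistant tumours in red and parental tumours in blue. Every point of the left panel lies below 0, while on the right 29 resistant points lie below 0 and 29 parental points above it.

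These counts rested on few libraries. In the resistant line 0 members passed without decitabine replicate 2, 2 without decitabine replicate 3 or without vehicle replicate 3, 3 without vehicle replicate 4, 4 without vehicle replicate 1 or 2, and 18 without decitabine replicate 1. Without the 2 libraries that stood apart, 2 members passed there, LDHA and GPI, and all 37 changes remained below 0, with a median log2 change of -0.56. In the parental line GPI passed neither without these libraries nor when any of decitabine replicates 1, 2 and 3 or vehicle replicates 2, 3 and 4 was left out, while 5 members passed without decitabine replicate 4 and 7 without vehicle replicate 1. How many of all genes passed with each library left out is not given here. The member counts therefore show only how far the calls depended on single libraries. With any single library left out, at least 34 of the 37 changes stayed below 0 in the resistant line and at least 35 in the parental line. Groups without overlap were found for 15 members in the resistant line and 8 in the parental line, all lower with decitabine, against 16% and 9.46% of all genes in either direction.

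The mean log2 level of the 37 members in each library, relative to vehicle tumours of its own line, showed how uneven the replicates were. It was -0.28, -1.21 and -0.91 in the resistant decitabine tumours, against -0.08, 0.02, 0.29 and -0.22 in the resistant vehicle tumours. It was -0.23, -0.42, -1.23 and -0.28 in the parental decitabine tumours, against -0.11, 0.12, -0.15 and 0.14 in the parental vehicle tumours. In each line every decitabine library lay below every vehicle library on this measure. By library, 32, 33 and 37 of the 37 members were below the vehicle mean in the resistant decitabine tumours, and 27, 35, 37 and 33 in the parental ones.

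**Figure D3:**
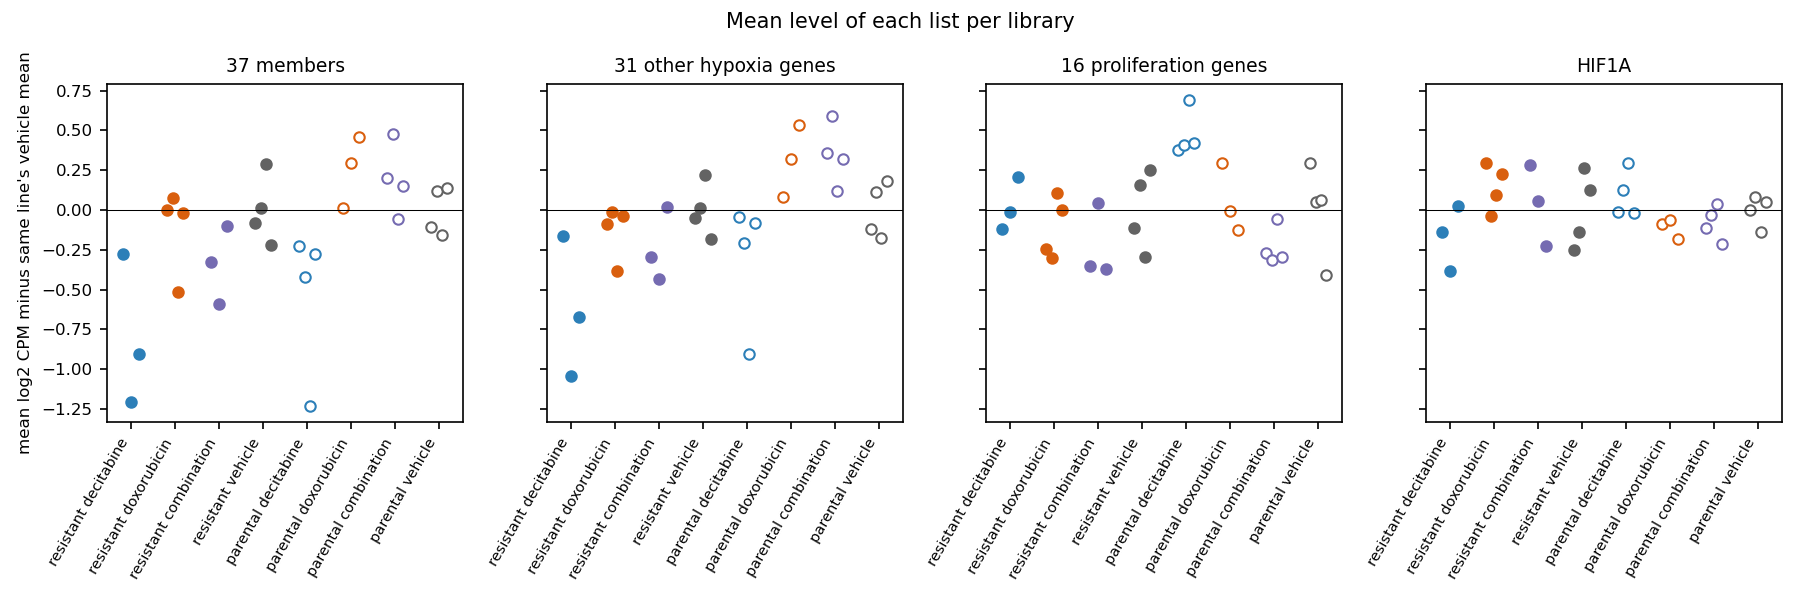
Mean log2 CPM of 4 measures in each library (points), relative to the vehicle mean of the same line: the 37 members, 31 other hypoxia-induced genes, 16 proliferation genes and HIF1A alone, with filled points for resistant and open points for parental tumours. The members run from -1.23 to 0.48 over all libraries, and HIF1A from -0.38 to 0.30.

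Averaged over both lines and both doxorubicin states, which uses all 29 libraries, decitabine lowered 11 members and raised none, with 6.8% of all genes passing in either direction, 3.96% higher and 2.85% lower. All 37 changes were below 0, with a median log2 change of -0.33, against -0.01 for all genes. Among the 11 that passed, the 8 largest changes were those of DDIT4 (log2 change -0.70, SE 0.20, adjusted p = 0.0393), BNIP3 (log2 change -0.64, SE 0.16, adjusted p = 0.0185) and SLC2A3 (log2 change -0.63, SE 0.19, adjusted p = 0.0428), which act in stress, mitophagy and glucose uptake. They also included the enzymes ENO1 (log2 change -0.43, SE 0.07, adjusted p = 0.000331), PGK1 (log2 change -0.42, SE 0.12, adjusted p = 0.036), GPI (log2 change -0.40, SE 0.06, adjusted p = 0.00019) and LDHA (log2 change -0.40, SE 0.09, adjusted p = 0.00629), and the MYC antagonist MXI1 (log2 change -0.38, SE 0.11, adjusted p = 0.041). ADM, NDRG1, PFKFB3, HK2, VEGFA, PFKFB4, SLC2A1 and PDK1 had changes from -0.64 to -0.44, larger than that of ENO1, and did not pass. SLC16A3, TPI1 and PFKP fell by 0.31, 0.26 and 0.25 on the log2 scale. ADM, the secreted member with the smallest p, ERO1A and CA12 did not pass (adjusted p = 0.0731, adjusted p = 0.154 and adjusted p = 0.402). This average also holds the combination against doxorubicin alone, for which libraries of each line overlapped on the members' mean relative to vehicle. In parental tumours that mean was 0.20, 0.48, -0.06 and 0.15 with the combination and 0.01, 0.295 and 0.46 with doxorubicin alone. In resistant tumours it was -0.33, -0.59 and -0.10, against -0.001, 0.08, -0.52 and -0.02 with doxorubicin alone.

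GPI, ENO1, TPI1, LDHA, SLC16A3 and BNIP3 passed in all 29 fits that each left out 1 library. PFKP passed in 26 of them, PGK1 in 15, DDIT4 in 13, MXI1 in 12 and SLC2A3 in 11. The number of members that passed was 6 without parental doxorubicin replicate 3 or resistant decitabine replicate 3. It was 7 without parental combination replicate 3, parental vehicle replicate 2 or 4, resistant combination replicate 1 or 2, resistant doxorubicin replicate 1 or 2, or resistant vehicle replicate 3. It was 17 without resistant doxorubicin replicate 3 and 22 without resistant decitabine replicate 1. The number of all genes that passed in each of these fits is not given, so these counts show dependence on single libraries only. All 37 changes were below 0 in each of these fits.

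**Figure D4:**
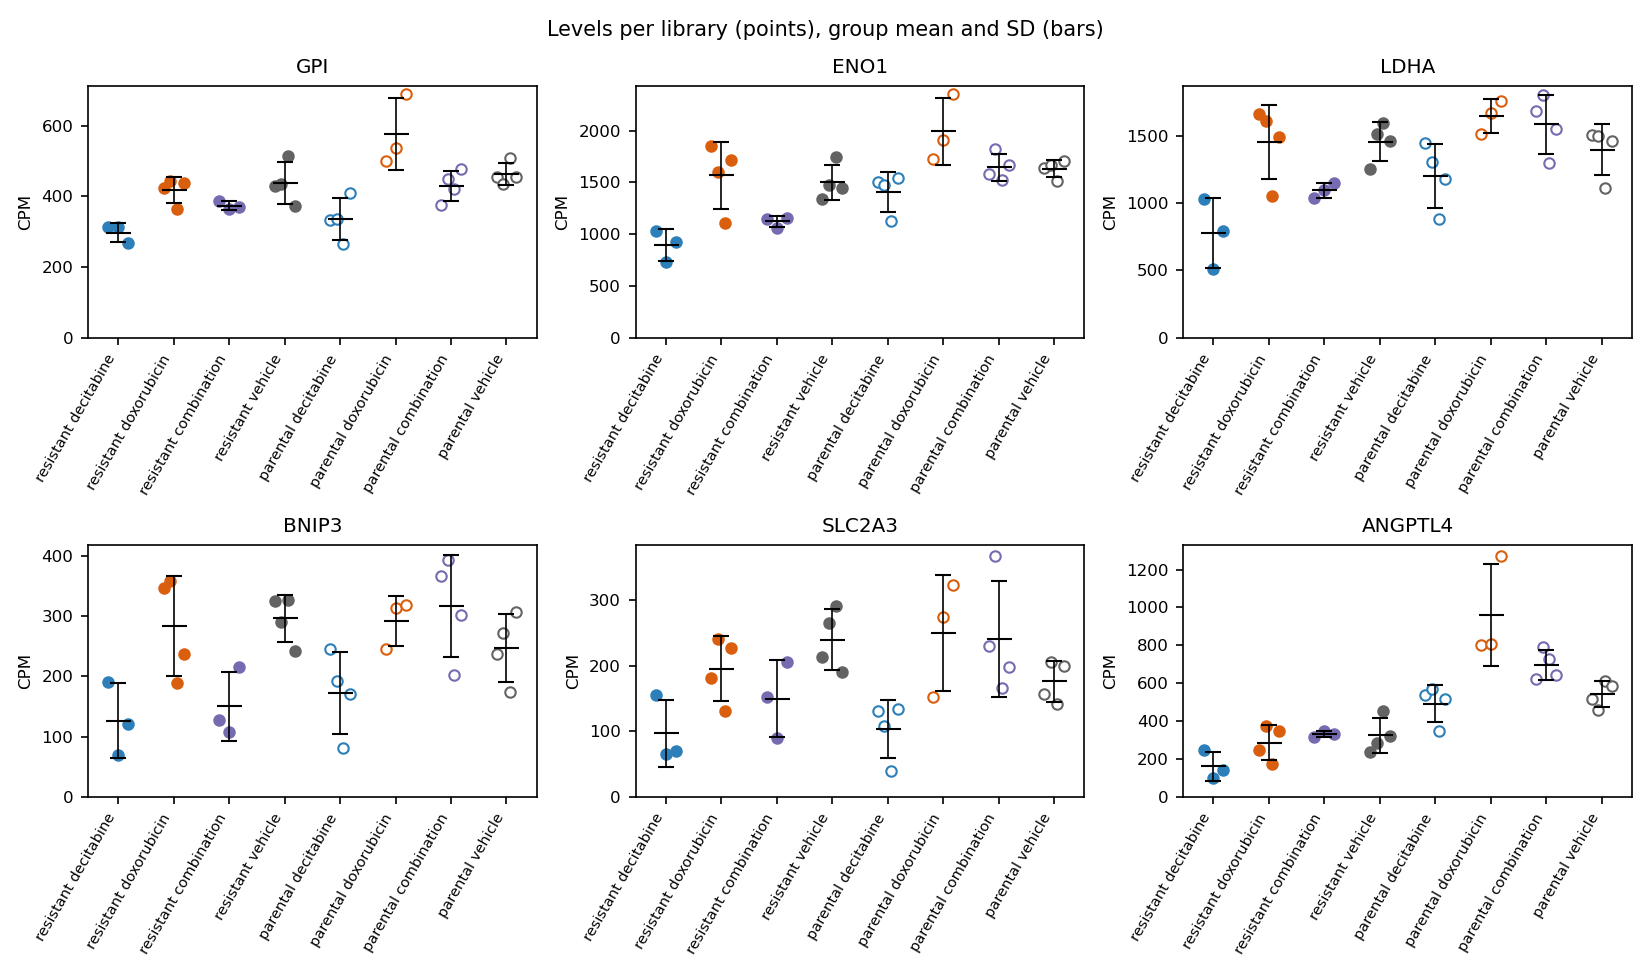
CPM of 6 members in each library (points) by group, with the group mean and SD as bars, filled points for resistant and open points for parental tumours. GPI, ENO1, LDHA, BNIP3 and SLC2A3 have their lowest mean within each line in the decitabine group, and ANGPTL4 is lower in every resistant than in every parental library of the same treatment.

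HIF1A, the oxygen-regulated subunit, did not pass in the average decitabine effect (log2 change -0.03, SE 0.06, adjusted p = 0.84). Its RNA averaged 349 ± 48.9 CPM in resistant decitabine tumours and 392 ± 64.1 CPM in resistant vehicle tumours (SD, n = 3 and 4), and 563 ± 59.6 CPM in parental decitabine tumours and 525 ± 34.3 CPM in parental vehicle tumours (SD, n = 4 each). These values do not show the level of HIF1A protein, which was not read here. Of 15 HIF subunits and regulators, 14 were tested and none passed in the average decitabine effect. EGLN2, another oxygen-sensing hydroxylase, rose with decitabine alone in the resistant line (log2 change 0.54, SE 0.15, adjusted p = 0.0421), a comparison in which 3.33% of all genes passed.

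A second list of 32 hypoxia-induced genes, none of them members, was read in the same way. It was chosen with earlier results of these data known and read in the same libraries, so it is not independent of the members' values. Of its 31 tested genes, 4 fell and 1 rose in the average decitabine effect, where 6.8% of all genes passed, with a median log2 change of -0.26 and 27 of 31 values below 0. PLOD2, a collagen lysyl hydroxylase, fell (log2 change -0.41, SE 0.12, adjusted p = 0.0313), as did MIR210HG, the host transcript of the hypoxia microRNA miR-210 (log2 change -0.63, SE 0.18, adjusted p = 0.0337). STC2, the glycoprotein hormone stanniocalcin 2, rose (log2 change 1.13, SE 0.25, adjusted p = 0.00498). With decitabine alone 2 fell in resistant tumours, PLOD2 (log2 change -1.15, SE 0.25, adjusted p = 0.0095) and the mitochondrial adenylate kinase AK4 (log2 change -0.80, SE 0.19, adjusted p = 0.0167), and none passed in parental tumours, where 27 of 31 values were below 0. Among glycolysis, lactate and pyruvate genes outside the members, 19 of 27 were tested and none passed in any drug comparison, with a median log2 change of 0.03 in the average decitabine effect. None of the 7 pentose phosphate genes passed in a drug comparison.

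Human genes used as markers of other cells moved with decitabine in some of the same libraries. Whether their counts came from the tumour cells or from mouse reads that align to the human genome was not tested. Of 4 endothelial markers tested of 8 listed, ENG, PECAM1 and TEK rose in the average decitabine effect, where 6.8% of all genes passed. CDH5 did not pass (adjusted p = 0.057). PECAM1 also rose in the average doxorubicin effect (log2 change 0.45, SE 0.12, adjusted p = 0.0485). Its log2 change with decitabine alone in parental tumours was -0.21 and did not pass. The endothelial list summed to 26.4 to 32.5 CPM in resistant decitabine tumours, against 12.4 to 16 CPM with vehicle. In parental tumours it summed to 23.4 to 25.1 CPM with decitabine, against 17.3 to 26 CPM with vehicle. VWF, CLDN5 and EMCN, 3 defining endothelial genes, stayed under 1 CPM in every library. Of 6 myeloid markers tested of 10 listed, LAPTM5 and FCER1G rose in the same average. AIF1, PTPRC, CSF1R and CD68 did not pass (log2 changes of 1.07, 0.36, -0.22 and 0.02). The myeloid list summed to 156 to 215 CPM in resistant decitabine tumours, against 101 to 127 CPM with vehicle. In parental tumours it summed to 97.6 to 168 CPM with decitabine, against 66.6 to 105 CPM with vehicle. LYZ, ITGAM and TYROBP stayed under 1 CPM. None of 6 fibroblast markers tested of 8 listed passed in any drug comparison. FABP4, the 1 adipocyte or muscle gene tested of 8 listed, rose (log2 change 2.24, SE 0.56, adjusted p = 0.0144), with ADIPOQ and MYH1 at no count, and none of 4 red blood cell genes had enough counts to test. With decitabine alone FABP4 did not pass in parental (adjusted p = 0.257) or resistant tumours (adjusted p = 0.382). The 8 adipocyte and muscle genes summed to 33.1 CPM in resistant combination replicate 2 and to at most 8.63 CPM in any other library. Of 16 proliferation genes, BIRC5 and CDK1 rose with decitabine in parental tumours, where 15 of 16 values were above 0, and the list mean was 0.38 to 0.69 above vehicle on the log2 scale in all 4 decitabine libraries, highest in replicate 3. In resistant tumours no proliferation gene passed. The part of these markers in the members' changes was not tested.

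With doxorubicin alone no member passed in either line. In parental tumours 0.23% of all genes passed, 0.0371% higher and 0.193% lower, and the members had a median log2 change of 0.22 with 32 of 37 values above 0. At an unadjusted p under 0.05, 3 members were higher there by edgeR and 3 by DESeq2, which also called none, against 10.5% of all genes by edgeR. ANGPTL4 had 799, 808 and 1270.4 CPM with doxorubicin, against 517, 460.2, 612 and 587 CPM with vehicle, without overlap (log2 change 0.82, SE 0.26, adjusted p = 0.178). ERO1A had 343, 419 and 617 CPM with doxorubicin, against 288, 356, 279 and 358 CPM with vehicle (log2 change 0.52, SE 0.19, adjusted p = 0.276). Groups without overlap were found for 4 members, ENO1, TPI1, LDHA and ANGPTL4, all higher, against 10.8% of all genes.

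In resistant tumours 0% of all genes passed with doxorubicin alone, and the members had a median log2 change of -0.07. With no adjustment, at p under 0.05, 1 member was lower by edgeR and 1 by DESeq2, which called none, against 4.38% of all genes by edgeR. The smallest p-values were those of PGAM1 (log2 change -1.14, SE 0.39, adjusted p = 1) and PFKFB4 (log2 change -0.60, SE 0.32, adjusted p = 1). PFKFB4 had 15.4, 17.9, 11.6 and 15.8 CPM with doxorubicin, against 20.6, 25.6, 26.9 and 19 CPM with vehicle, without overlap. That was found for 3 members, PFKFB4, HK2 and PGAM1, all lower, against 3.89% of all genes. Replicate 3 was low across the set, with a list mean of -0.52 while the others lay between -0.02 and 0.08. The test of a difference between the lines in the doxorubicin response passed for no member and for 0% of all genes. At an unadjusted p under 0.05, 5 members were lower in it by edgeR and 5 by DESeq2, which called none, against 7.99% of all genes by edgeR. PGAM1 (log2 change -1.54, SE 0.55, adjusted p = 0.443) and ANGPTL4 (log2 change -1.0, SE 0.35, adjusted p = 0.443) had the smallest p-values.

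Averaged over both lines and both decitabine states, doxorubicin raised 4 members and lowered none, with 2.37% of all genes passing in either direction, 0.83% higher and 1.54% lower. The median log2 change was 0.28, against 0.01 for all genes, and 36 of 37 values were above 0. The 4 were CA12 (log2 change 0.58, SE 0.15, adjusted p = 0.039), ANGPTL4 (log2 change 0.54, SE 0.13, adjusted p = 0.0272), ENO2 (log2 change 0.43, SE 0.11, adjusted p = 0.0401) and GPI (log2 change 0.23, SE 0.06, adjusted p = 0.0492). CA12 had 131, 122, 78.5 and 127 CPM with doxorubicin in resistant tumours, against 91, 66.1, 112 and 52.4 CPM with vehicle. The parental line had 129, 126 and 98.2 CPM with doxorubicin, against 102, 110.2, 118 and 167 CPM with vehicle. In the resistant line 3 of the 4 doxorubicin libraries were above all vehicle libraries, and in the parental line the groups overlapped. The average also takes in the combination against decitabine alone. Against parental vehicle, CA12 had log2 changes of -0.08 with doxorubicin, 0.07 with the combination and -0.94 with decitabine. Against resistant vehicle these were 0.51, 0.62 and -0.26. With doxorubicin alone ANGPTL4 overlapped vehicle in the resistant line but not in the parental line, and GPI overlapped in both. ENO2 had 92.5, 142 and 137 CPM with doxorubicin in parental tumours, against 74.9, 102, 99 and 117 CPM with vehicle, and these groups overlapped. Of the second hypoxia list, LOX, a collagen cross-linking enzyme, rose (log2 change 0.75, SE 0.20, adjusted p = 0.0485) and all 31 values were above 0. Of the proliferation genes 3 fell, MKI67, CDK1 and BUB1, and all 16 values were below 0. The part of proliferation in the members' values was not tested.

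This count depended on single libraries. No member passed without parental doxorubicin replicate 3, resistant decitabine replicate 3 or resistant combination replicate 1. The number was 1 without parental combination replicate 1 or 2, parental doxorubicin replicate 2, parental vehicle replicate 1 or 3, resistant decitabine replicate 2, resistant combination replicate 3, resistant doxorubicin replicate 1, 2 or 4, or resistant vehicle replicate 2 or 4. It was 2 without parental decitabine replicate 3, without resistant vehicle replicate 1, or without both libraries that stood apart. It was 7 without resistant combination replicate 2, 8 without resistant vehicle replicate 3, 11 without resistant doxorubicin replicate 3 and 12 without resistant decitabine replicate 1. Counts over all genes are not given for these fits, so the larger numbers are not read as a result about the members. ANGPTL4 passed in 26 of the 29 fits, CA12 and ENO2 in 12 each and GPI in 7.

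With the combination no member passed in either line. These comparisons share their vehicle libraries with those of the single drugs. In resistant tumours 1.13% of all genes passed with the combination (0.911% higher and 0.215% lower), 29 of 37 members were below 0 and the median log2 change was -0.25. With no adjustment, at p under 0.05, 10 members were lower and 1 higher by both edgeR and DESeq2, against 15.5% of all genes by edgeR, and DESeq2 called none. BNIP3 had 128, 107 and 215 CPM with the combination, against 325, 291, 327 and 243 CPM with vehicle (log2 change -0.98, SE 0.34, adjusted p = 0.171). PGAM1 came next (log2 change -1.22, SE 0.43, adjusted p = 0.174). Groups without overlap were found for 10 members, all lower, against 13.4% of all genes, among them ENO1, which had 1145, 1062 and 1161 CPM against 1344, 1475, 1742 and 1448 CPM with vehicle (log2 change -0.42, SE 0.15, adjusted p = 0.176).

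In parental tumours 1.03% of all genes passed with the combination (0.645% higher and 0.385% lower), 29 of 37 members were above 0 and the median log2 change was 0.28. At an unadjusted p under 0.05, 1 member was higher and 1 lower by edgeR, and 3 higher and 1 lower by DESeq2, which called none, against 17.9% of all genes by edgeR. SLC16A3 had 174, 202, 230.4 and 199 CPM with the combination, against 242, 235, 305 and 258 CPM with vehicle (log2 change -0.37, SE 0.15, adjusted p = 0.181). EGLN3 had 13.8, 20.6, 10.1 and 14.2 CPM with the combination, against 5.33, 8.91, 9.52 and 9.13 CPM with vehicle (log2 change 0.83, SE 0.39, adjusted p = 0.263). Groups did not overlap for 3 members, EGLN3 and ANGPTL4, which were higher, and SLC16A3, which was lower, against 10.1% of all genes. By library the mean of the 37 members was -0.33, -0.59 and -0.10 in resistant combination tumours, relative to vehicle, and 0.20, 0.48, -0.06 and 0.15 in parental ones.

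The lines were set against each other directly. In the test of a difference in the combination response, no member passed, 0.0222% of all genes did (0.0148% higher and 0.00741% lower), and 29 of 37 values were lower in the resistant line, with a median of -0.52. With no adjustment, at p under 0.05, 12 members were lower by edgeR and 13 by DESeq2, which called 1, against 21% of all genes by edgeR. The smallest p-values belonged to PGAM1 (log2 change -1.83, SE 0.56, adjusted p = 0.127) and KDM3A (log2 change -1.41, SE 0.43, adjusted p = 0.128), and 2 members passed without resistant combination replicate 3. KDM3A had 19.5, 13.8 and 32.2 CPM with the combination in resistant tumours, against 45.6, 46.1, 35.3 and 31.9 CPM with vehicle. In parental tumours it had 80.2, 64.1, 34.5 and 35.6 CPM with the combination, against 36.9, 41.3, 27 and 40.4 CPM with vehicle.

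Whether the decitabine effect depended on doxorubicin was tested by the interaction averaged over both lines. No member passed and neither did any other gene (0%), but all 37 values were above 0, with a median of 0.47 against 0.00 for all genes, so that the fitted decitabine effect was higher beside doxorubicin than without it for each of them. At an unadjusted p under 0.05, 11 members were higher by edgeR and 12 by DESeq2, which called none, against 7.84% of all genes by edgeR. EGLN3 (log2 change 1.71, SE 0.57, adjusted p = 0.504) and MXI1 (log2 change 0.60, SE 0.23, adjusted p = 0.537) had the smallest p-values. MXI1 had 155, 122 and 164 CPM with the combination in resistant tumours, against 171, 174, 122 and 163 CPM with doxorubicin alone, and these groups overlapped. The second hypoxia list had 29 of 31 values above 0. All 16 proliferation genes were below 0, with a median of -0.47.

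Without drug the lines differed in few members. Of the 37 tested, 2 were lower in resistant vehicle tumours and none higher, with 20.1% of all genes passing in either direction, 8.66% higher and 11.5% lower. The median log2 difference was 0.03, against 0.02 for all genes. EGLN3 had 2.19, 1.01, 3.39 and 0.678 CPM in resistant vehicle tumours, against 5.33, 8.91, 9.52 and 9.13 CPM in parental vehicle tumours (log2 change -2.15, SE 0.50, adjusted p = 0.0028). ANGPTL4 had 238, 282, 453 and 321 CPM in resistant vehicle tumours, against 517, 460.2, 612 and 587 CPM in parental ones (log2 change -0.75, SE 0.24, adjusted p = 0.0286). Neither overlapped between the lines, and TPI1, which did not pass, was higher in the resistant line without overlap, while 22.3% of all genes showed no overlap. ANGPTL4 no longer passed without parental vehicle replicate 3 or 4, without resistant vehicle replicate 1, 2 or 4, or without both libraries that stood apart, which left EGLN3 as the 1 member called.

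Averaged over the 4 treatments the resistant tumours had 13 lower members and none higher, while 46% of all genes passed in either direction, 22.6% higher and 23.4% lower. The median log2 difference was -0.22, against 0.00 for all genes, and 30 of 37 values were below 0. EGLN3 (log2 change -2.12, SE 0.27, adjusted p = 2.94e-07) and ANGPTL4 (log2 change -1.30, SE 0.13, adjusted p = 6.53e-09) differed most. They were followed by VEGFA (log2 change -0.87, SE 0.20, adjusted p = 0.00088), HK2 (log2 change -0.75, SE 0.26, adjusted p = 0.0209), PGAM1 (log2 change -0.69, SE 0.20, adjusted p = 0.00654) and NDRG1 (log2 change -0.67, SE 0.24, adjusted p = 0.0257). P4HA2 (log2 change -0.60, SE 0.13, adjusted p = 0.000421) and SLC2A1 (log2 change -0.56, SE 0.14, adjusted p = 0.00232) completed the 8 largest of those that passed, and P4HA1, KDM3A, ENO1, LDHA and GPI had log2 differences of -0.52, -0.44, -0.42, -0.32 and -0.23. CA12, the acid-handling member, did not pass (log2 change -0.17, SE 0.15, adjusted p = 0.355).

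**Figure D5:**
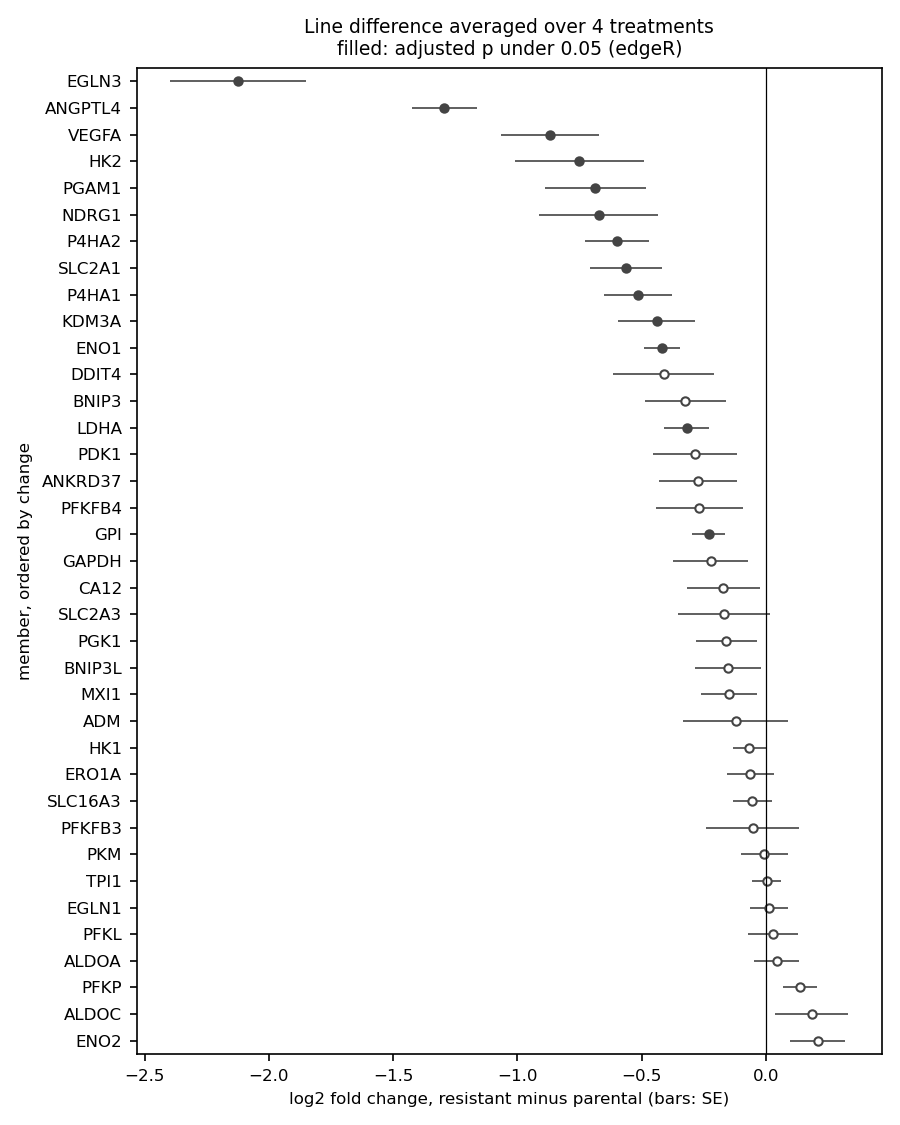
Fitted log2 difference of each tested member between resistant and parental tumours, averaged over the 4 treatments, with bars of 1 SE and filled points where the adjusted p was under 0.05. EGLN3 at -2.12 and ANGPTL4 at -1.30 lie furthest from 0, and no filled point lies above 0.

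Values by treatment are given for the members that differed most. ANGPTL4 had 314, 345 and 331 CPM in resistant combination tumours, against 621, 791, 728 and 644 CPM in parental combination tumours, and 245, 375, 173 and 349 CPM in resistant doxorubicin tumours, against 799, 808 and 1270.4 CPM in parental doxorubicin tumours. With decitabine it had 245, 98.6 and 139.7 CPM in resistant tumours, against 537, 567, 347 and 516 CPM in parental tumours. In each of the 4 treatments every resistant library was below every parental library. EGLN3 had 4.11, 1.45 and 3.22 CPM in resistant combination tumours, against 13.8, 20.6, 10.1 and 14.2 CPM in parental ones, also without overlap. With decitabine EGLN3 reached 2.06 CPM in resistant tumours, against 0.975 to 8.12 CPM in parental tumours, and these groups overlapped.

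Other members overlapped between the lines in some treatments and not in others. P4HA2 had 73, 42.3 and 89.4 CPM in resistant combination tumours, against 127, 145, 107 and 136 CPM in parental ones, without overlap. Under vehicle it had 75.3, 60, 100.4 and 72.3 CPM in resistant tumours, against 90.6, 104, 63 and 111 CPM in parental tumours, with overlap (log2 change -0.26, SE 0.24, adjusted p = 0.499). SLC2A1 had 396, 501, 217 and 339.7 CPM in resistant doxorubicin tumours, against 477, 615 and 761 CPM in parental ones, with overlap, and 301, 251 and 423 CPM in resistant combination tumours, against 539, 759, 444 and 548 CPM in parental ones, without overlap. NDRG1 had 2359, 1393 and 2579 CPM in resistant combination tumours, against 4653, 5774, 3447 and 3328 CPM in parental combination tumours. All 3 resistant NDRG1 values were below the parental ones. KDM3A no longer passed without parental combination replicate 1 or resistant combination replicate 2, and NDRG1 without parental doxorubicin replicate 3 or resistant combination replicate 2, while the other 11 passed in all 29 fits with 1 library left out.

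HIF regulators differed between the lines as well. HIF1A was lower in resistant tumours, under vehicle (log2 change -0.42, SE 0.12, adjusted p = 0.0125) and on average (log2 change -0.40, SE 0.06, adjusted p = 8.24e-06). Of the 14 tested, 6 were higher and 5 lower on average, where 46% of all genes passed, with VHL (log2 change 0.41, SE 0.07, adjusted p = 8.15e-06) and EGLN2 (log2 change 0.47, SE 0.07, adjusted p = 6.13e-06) among the higher ones. Of the 31 tested genes of the second hypoxia list 3 were higher and 11 lower, a share near that of all genes, and the collagen lysyl hydroxylase PLOD1 was lower (log2 change -0.77, SE 0.09, adjusted p = 4.97e-08). In the pentose phosphate pathway PGD, the 6-phosphogluconate dehydrogenase, was lower (log2 change -0.90, SE 0.08, adjusted p = 2.23e-10). RPE (log2 change 0.30, SE 0.09, adjusted p = 0.00752) and RPIA (log2 change 0.27, SE 0.11, adjusted p = 0.0481) were higher, and the other genes of that list did not pass.

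Within groups most members varied together from library to library. After the group mean was taken from each library, the median Pearson correlation between 2 members was 0.58 over 666 pairs, with quartiles of 0.30 and 0.76, against 0.00 for all pairs of tested genes. These are descriptions over 29 libraries that share depth and tissue, with no test. NDRG1 (r = 0.97 with the mean of the other members), SLC2A1 (0.96) and SLC2A3 (0.95) followed the set most closely. GAPDH (-0.07), PKM (0.10), PFKL (0.27) and SLC16A3 (0.27) followed it least, although they belong to the same pathway. Within the parental vehicle group, for instance, replicate 3 had the highest GAPDH (3105 CPM, against 1450.1 to 1689 CPM in the others) and the lowest LDHA (1117 CPM, against 1462 to 1509.7 CPM).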

How the data were processed

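RNA of 29 snap-frozen xenograft tumours had been read from the 3′ end of poly(A) transcripts, with the directional QuantSeq FWD kit per the labels' protocols. The deposited values are raw counts per gene, with no normalisation, and the submitters' processing notes name cutadapt, STAR 2.7.3a, featureCounts, DESeq2 and the build GRCh38.p10. The annotation release, strand setting and treatment of mouse reads are not given in the sources used here. Without strand, reads of a gene and its antisense partner cannot be told apart, and reads of mouse stroma that align to the human genome can add to human genes.

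Counts were fitted with edgeR 4.0.16 in R 4.3.3 (quasi-likelihood test, robust, TMM scaling with factors of 0.896 to 1.07) in 1 model of 8 group means over all 29 libraries. The filter kept 13495 genes (minimum count 10, minimum total 15), which hold 99.72% of the counts. Genes passed at a Benjamini-Hochberg adjusted p under 0.05 over all of these, and every adjusted p in the text comes from this edgeR test unless DESeq2 1.42.0 is named. Levels are CPM on the TMM scale. The code was run on simulated counts for 1 comparison, decitabine in resistant tumours. Those counts were drawn with the spread that the same model had estimated, so they do not test how well it describes these data. The members and gene lists were chosen with earlier results of these data known. The members named are those that passed, with full values for at most the 8 largest changes, or the 2 smallest p-values where none passed. Values in each library are given for the leading member of each role and for others that show the spread. Alternatives were DESeq2, other scalings and filters, a replicate block and each library left out. The tests of line differences in the doxorubicin and combination responses, and the fit without the 2 libraries that stood apart, were added after seeing the data.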

Additional observations from a re-analysis of the deposited data

Results flagged for a closer look

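In groups of 4 libraries, 190 sets of member values were examined for a single library far from the other 3, and 9, or 4.74%, held one, where chance gives about 1 in 20. In resistant doxorubicin replicate 3, PGK1 was 1563 CPM (the others lay between 2518 and 2580.2 CPM), CA12 was 78.5 CPM (122 to 131 CPM) and P4HA2 was 54.1 CPM (77.1 to 79.4 CPM). In parental decitabine replicate 3, ENO1 was 1125 CPM (1472 to 1541 CPM) and ERO1A was 189 CPM (291 to 296 CPM). In parental vehicle replicate 3, GAPDH was 3105 CPM (1450.1 to 1689 CPM) and LDHA was 1117 CPM (1462 to 1509.7 CPM). In parental vehicle replicate 1, TPI1 was 336 CPM (363 to 367 CPM) and EGLN3 was 5.33 CPM (8.91 to 9.52 CPM).

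For 7 responses every resistant library lay below its line's vehicle mean and every parental library above it, among 37 members examined in each of 3 treatments. They were 0 with decitabine, 2 with doxorubicin (5.41%) and 5 with the combination (13.5%), while 9.07%, 6.49% and 11.7% of all genes moved opposite ways in the 2 lines in those treatments, counting either direction. The test of the difference between the lines passed for none of them. With doxorubicin the resistant response minus the parental one was -1.13 for HK2 (log2, adjusted p = 0.731) and -1.05 for PFKFB4 (adjusted p = 0.581). With the combination it was -2.18 for HK2 (adjusted p = 0.138), -0.80 for PGK1 (adjusted p = 0.188) and -0.61 for ENO2 (adjusted p = 0.247). It was -0.92 for NDRG1 (adjusted p = 0.424) and -0.52 for ERO1A (adjusted p = 0.244).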

How the results depend on the processing

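None of 53 named values changed sign in any fit: with 1 library left out 922 kept their side of the threshold, 163 lost it and 1 gained it, and under the other settings 332 kept it, 25 lost it and 10 gained it. With no filter on low counts, over 30339 genes, members called were 22 for decitabine in resistant tumours, 22 for decitabine in parental tumours, 28 for its average effect and 6 for its line difference, 4 for doxorubicin in parental tumours, 21 for its average effect and 3 for its line difference. There they were 12 for the combination in resistant tumours, 5 in parental tumours and 13 for its line difference, 12 for the interaction, 7 for the lines under vehicle and 20 for their average difference. The cause was not tested. DESeq2 called 13 members for decitabine in resistant tumours, 4 in parental tumours, 11 for the average doxorubicin effect and 1 for the line difference in the combination response. Counts over all genes in these settings follow below for some of these comparisons only. Where none is given, a member count is not read as a result about the members. For decitabine in parental tumours 0 were called with DESeq2's size factors in edgeR and 0 with a filter of 1 CPM in 3 libraries, and 3 with upper quartile scaling, where 84 of 234 genes called were higher, against 107 of 225 with TMM. Without the 2 libraries that stood apart, 2 members were called for decitabine in resistant tumours, 0 in parental tumours, 2 for the average doxorubicin effect and 1 for the lines under vehicle.

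Same-numbered libraries of different groups did not vary together (median correlation -0.006 over 94 pairs, against 0.012 over 273 other pairs), and 5 of 29 libraries matched their own number best. The replicate block gave 3 members for decitabine in resistant tumours and 0 in parental tumours. With each library left out, members called ranged from 0 to 18 for decitabine in resistant tumours, 0 to 7 in parental tumours, 6 to 22 for its average effect, 0 to 12 for the average doxorubicin effect, 11 to 16 for the average line difference, 1 to 2 for the lines under vehicle and 0 to 2 for the line difference in the combination response. No count over all genes stands beside these ranges, which show dependence on single libraries only. Counts over all genes also moved by over 1.5 times in some settings. For decitabine in resistant tumours, 450 genes with edgeR became 1089 with no filter, 498 of them higher against 274, and 162 without the 2 libraries. For decitabine in parental tumours, 225 became 499 with DESeq2, 942 with no filter, 147 with the block and 96 without the 2 libraries. For its line difference, 16 became 297 with DESeq2, 1001 with no filter, 32 with upper quartile scaling and 7 without the 2 libraries. For doxorubicin, 31 in parental tumours became 150 with DESeq2, 192 with no filter, and 3 both with the block and without the 2 libraries, 0 in resistant tumours became 1 with DESeq2 and 74 with no filter, and 320 in its average effect became 611 with DESeq2 and 774 with no filter. For the combination, 152 in resistant tumours became 256 with DESeq2 and 783 with no filter (351 higher, against 123), and 139 in parental tumours became 342 with DESeq2, 884 with no filter and 85 without the 2 libraries. The interaction had 0 with edgeR and 154 with no filter. For the line difference in the doxorubicin response, 0 became 31 with DESeq2, 108 with no filter, and 1 each with upper quartile scaling and with the block. For that in the combination response, 3 became 212 with DESeq2, 1109 with no filter, 5 with the DESeq2 size factors, 2 with the CPM filter and 1 with the block.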
